A study of Mus musculus with 9 samples.

Results

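The 36 genes described here carry dietary fat and sterols through the absorptive cells of the small intestine or burn fatty acids in their mitochondria and peroxisomes. They were taken by symbol from a list of genes with these known roles, chosen with earlier results of these data known. All 36 were found among the 55341 genes of the count tables, and 35 had enough counts to be tested, the exception being Apoc2, an activator of lipoprotein lipase, with 2 to 10 counts in a library. Fatty acids and cholesterol taken up at the brush border are bound by small cytosolic carriers, rebuilt into triglyceride and cholesteryl ester in the endoplasmic reticulum, and packed with apolipoproteins into chylomicrons, while surplus is held in lipid droplets. Most of these genes are strongest in mature villus enterocytes, and PPARA, a nuclear receptor for fatty acids, is a known activator of many of them.

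RNA was sequenced from small-intestinal crypts of adult C57BL/6 mice, all male and 8 to 12 weeks old, with or without deletion of Pcgf6, which encodes part of a variant form of Polycomb repressive complex. The 4 groups were AhCre Pcgf6 KO (n = 2), AhCre WT (n = 2), Villin CreERT2 Pcgf6 KO (n = 2) and Villin CreERT2 WT (n = 3). AhCre is switched on by beta-naphthoflavone (BNF), a ligand of the aryl hydrocarbon receptor, and both AhCre genotypes received it. Villin CreERT2 is driven in the intestinal epithelium by the Villin promoter and is switched on by tamoxifen (TAM), which both Villin genotypes received by their titles, although BNF is named in their descriptions. The labels give 15 days after induction in titles and treatments and 7 days elsewhere, so the interval is uncertain. Whether each replicate was its own animal is not stated, so the p-values reflect only how far these libraries differed, and that spread may be technical.

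Total counts ran from 6455098 to 12377921 per library, and counts were found in 33791 to 38835 genes in AhCre libraries and in 22058 to 29750 in Villin libraries. Levels are given in CPM, counts scaled to a common library size with TMM factors. Pcgf6 was at 7.20 and 5.90 CPM in AhCre KO against 14.1 and 10.1 CPM in AhCre WT, and at 3.07 and 2.47 CPM in Villin KO against 10.8, 12.7 and 9.44 CPM in Villin WT. Every KO library was below every WT library of its driver, with changes of -0.89 (SE 0.40, adjusted p = 1.0) and -1.99 (SE 0.42, adjusted p = 0.0220). The labels do not give the deleted part of the gene. The 8 epithelial markers summed to 6212 to 16369 CPM over the 9 libraries and the 8 endothelial ones to 8.81 to 16.6 CPM. Of 7 adipocyte markers 1, Cidec, averaged at least 1 CPM.

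With Pcgf6 deleted, most of the lipid genes had lower fitted levels in AhCre crypts and higher ones in Villin crypts, relative to the WT crypts of the same driver. In AhCre 33 of the 35 tested members had a negative log2 fold change, against 50.5% of all 16250 genes tested, and 2 a positive one (49.5% of all genes), with a median of -0.41 against -0.0048 over all genes. In Villin 30 of 35 had a positive log2 fold change, against 41.4% of all genes, and 5 a negative one (58.5% of all genes), with a median of 0.66 against -0.18. Together, 28 members were negative in AhCre and positive in Villin, against 22.9% of all genes, 2 were positive in both (Fabp2 and Acsl3), 5 were negative in both (Dgat1, Abca1, Angptl4, Cpt1a and Acaa2), and none was positive in AhCre and negative in Villin. In bulk RNA fewer cells of a type and less RNA per cell cannot be told apart.

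In Villin crypts 4 members rose by edgeR's quasi-likelihood test at a Benjamini-Hochberg adjusted p under 0.05 over all genes (3.33% of all genes rose), and none fell (2.88% of all genes fell). The 4 were Dgat2, Acsl5, Acadl and Creb3l3. At an unadjusted p under 0.05, 14 members were higher (10.7% of all genes) and 1 lower (15.4% of all genes). DESeq2 called 10 members higher (6.75% of all genes) and voom 2 (0.812%), and both called 0 lower (4.01% of all genes by DESeq2 and 0.0369% by voom). In AhCre crypts no member passed in either direction by edgeR, where only 0.00615% of all genes passed as higher and 0% as lower. At an unadjusted p under 0.05, 0 members were higher in AhCre KO (1.81% of all genes) and 5 lower (1.72% of all genes). These 5 were Pdk4, Abcg8, Scarb1, Ehhadh and Abcg5. DESeq2 called 1 member lower in AhCre (Pdk4, 0.154% of all genes lower) and voom 8 (2.42%), and neither called one higher (0.302% of all genes by DESeq2 and 3.19% by voom).

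The libraries show the same arrangement without a model. Both AhCre KO libraries were below both AhCre WT libraries for 29 of 35 members, against 25.1% of all genes tested, and above them for 0, against 23.4%. Both Villin KO libraries were above all 3 Villin WT libraries for 19 of 35 members, against 14.5% of all genes, and below them for 1, Angptl4, against 19.8%. For 17 members both held, against 5.03% of all genes, and for 0 the reverse of both (4.65% of all genes). Summed over the 36 genes, the level was 11428 and 11690 CPM in AhCre KO against 14566 and 13132 CPM in AhCre WT. It was 63363 and 47480 CPM in Villin KO against 42120, 25885 and 39082 CPM in Villin WT. As shares of all counts these sums were 1.39% and 1.45% in AhCre KO against 1.82% and 1.65% in AhCre WT. In Villin they were 4.33% and 3.69% in KO against 3.59%, 2.88% and 3.14% in WT. A few high genes made up much of each sum, so the sums do not show how most members behaved. In Villin KO 1 the genes of chylomicron assembly gave 30428 CPM and the 3 cytosolic carriers 16567 CPM. No gene of these roles passed by edgeR in either driver.

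**Figure D1:**
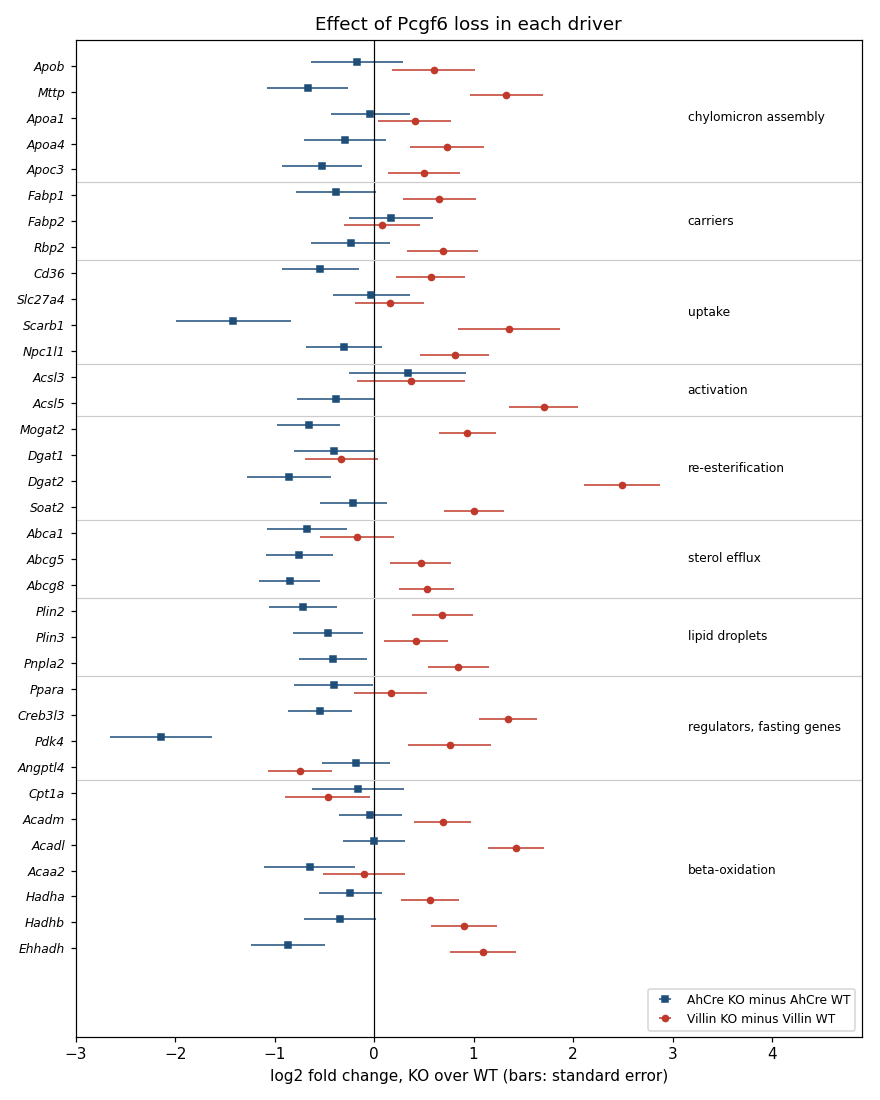
The log2 fold change of the 35 tested members is drawn for AhCre KO over AhCre WT (blue squares) and for Villin KO over Villin WT (red circles), with bars of 1 standard error, grouped by role. 33 of the 35 squares lie left of 0 and 30 of the 35 circles lie right of it, with Pdk4 (-2.14) the farthest square and Dgat2 (2.49) the farthest circle.

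The 5 tested genes of chylomicron assembly had a median log2 fold change of -0.29 in AhCre and 0.60 in Villin. Apob, the structural protein of the chylomicron, did not separate the genotypes in Villin. Its level was 1160 and 972 CPM in AhCre KO against 1239 and 1160 CPM in AhCre WT, and 2418 and 866 CPM in Villin KO against 954, 1465 and 831 CPM in Villin WT. One Villin KO library was above and the other within the WT range, and the change was 0.60 (SE 0.42, adjusted p = 0.384). Mttp, which loads lipid onto apolipoprotein B, was at 621 and 609 CPM in AhCre KO against 1079 and 878 CPM in AhCre WT, and at 4253 and 2527 CPM in Villin KO against 859, 1452 and 1743 CPM in Villin WT. Its libraries did not overlap in either driver, in opposite directions, but the Villin change of 1.33 (SE 0.37) missed the threshold at an adjusted p of 0.0517. Apoa1 and Apoa4, surface apolipoproteins of new chylomicrons, and Apoc3, an inhibitor of lipoprotein lipase, had log2 fold changes of -0.04, -0.29 and -0.52 in AhCre and 0.41, 0.73 and 0.50 in Villin, none past the test. These 3 lie side by side on chromosome 9, with 2466 bases between Apoa1 and Apoc3 and 5059 between Apoc3 and Apoa4 (GRCm38). Exons of Mttp and Apoa4 overlap exons of other genes on the opposite strand, and Smart-seq2 reads do not mark the strand.

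The 3 cytosolic carriers had medians of -0.24 in AhCre and 0.66 in Villin. Fabp1, Fabp2 and Rbp2, which bind fatty acids (Fabp1 and Fabp2) and retinol (Rbp2), were together with Apoa1 and Apoa4 the 5 members with the highest level per exon length in all 4 groups. Fabp1 was at 602 and 732 CPM in AhCre KO against 893 and 849 CPM in AhCre WT, and at 4486 and 3712 CPM in Villin KO against 3339, 1507 and 2958 CPM in Villin WT. The genotypes did not overlap in either driver, yet the changes of -0.39 (SE 0.40, adjusted p = 1.0) and 0.66 (SE 0.36, adjusted p = 0.272) did not pass the test. Rbp2 followed the same arrangement, at -0.24 in AhCre and 0.69 in Villin. Fabp2 did not: it was at 1375 and 1530 CPM in AhCre KO against 1453 and 1124 CPM in AhCre WT, and at 5839 and 6794 CPM in Villin KO against 6794, 3309 and 7848 CPM in Villin WT. The genotypes of Fabp2 overlapped in both drivers, with changes of 0.17 and 0.08.

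The 300 bases around the start of Fabp1, a textbook target of PPARA, are shown for the nuclear receptor core motif AGGTCA, the letters shared by the sites of PPARA, HNF4A and related receptors. The window is chr6:71199629-71199928 on the plus strand (RefSeq, GRCm38.p6), from 250 bases before to 50 bases after the start, and the capitals mark AGGTCA read on the other strand, 67 and 9 bases before the start:
Fabp1: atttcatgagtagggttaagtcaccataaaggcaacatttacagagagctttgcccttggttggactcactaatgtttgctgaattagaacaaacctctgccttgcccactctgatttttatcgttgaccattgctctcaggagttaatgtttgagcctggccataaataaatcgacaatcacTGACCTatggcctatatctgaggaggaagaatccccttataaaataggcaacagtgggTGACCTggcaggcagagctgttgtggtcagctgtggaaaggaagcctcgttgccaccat
Of the 36 members 28 had such a window, and 9 of these held AGGTCA on either strand (32.1%), against 16.3% of all 32851 windows in the table. The E-box CACGTG was in 2 (7.14%, Abca1 and Plin2) against 7.15% of all windows, the E2F motif TTCCCGCC in 0 against 2.19%, and a direct repeat of AGGTCA spaced by 1 base in 0 against 0.0396%. All 4 were searched on both strands without mismatch, and AGGTCA is part of the direct repeat. Members were counted by gene, with a match in any window, and the background by window, so the shares are not counted alike. Abcg8 and Creb3l3 had 2 windows each. The 4 windows printed were chosen after values were seen, and a match is a match of letters in this window only.

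The 4 genes of uptake at the cell surface had medians of -0.42 in AhCre and 0.69 in Villin. Cd36, a scavenger receptor for long-chain fatty acids, was at 33.9 and 33.4 CPM in AhCre KO against 56.4 and 41.6 CPM in AhCre WT, and at 91.6 and 201 CPM in Villin KO against 79.1, 109.7 and 107 CPM in Villin WT. Only Villin KO 2 exceeded the WT range, and the change was 0.57 (SE 0.35, adjusted p = 0.319). That library also held the highest macrophage and myeloid sum, 884 CPM, against 111 CPM in Villin KO 1 and 121, 10.1 and 170 CPM in Villin WT, and macrophages express Cd36 too. The part of these cells in the Cd36 value was not tested. Scarb1, a receptor for high-density lipoprotein, was at 6.63 and 4.16 CPM in AhCre KO against 14.6 and 14.3 CPM in AhCre WT, a change of -1.42 (SE 0.58, unadjusted p = 0.0302, adjusted p = 1.0). In Villin it was at 49.0 and 14.2 CPM in KO against 10.8, 7.31 and 19.1 CPM in WT, where 1 KO library lay within the WT range. Npc1l1, the cholesterol importer blocked by ezetimibe, had changes of -0.30 in AhCre and 0.81 in Villin (adjusted p = 0.161). Slc27a4, a fatty acid transport protein with acyl-CoA synthetase activity, had overlapping genotypes in both drivers.

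Of the 2 genes that activate fatty acids, Acsl5 (chromosome 19, 55251938 to 55297720, GRCm38, plus strand), which joins fatty acids to coenzyme A, rose in Villin. It was at 5351 and 3335 CPM in Villin KO against 980.1, 1250 and 1770 CPM in Villin WT, a 3.26-fold change (log2 1.70, SE 0.35, adjusted p = 0.0201). In AhCre it was at 548 and 571 CPM in KO against 806 and 658 CPM in WT (-0.39, SE 0.39). Acsl5 shares 404 bases of exon with Zdhhc6 on the opposite strand. Acsl3, a synthetase tied to lipid droplets, overlapped in both drivers, at changes of 0.33 and 0.37.

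The 4 genes of re-esterification had medians of -0.53 in AhCre and 0.97 in Villin. Dgat2 (chromosome 7, 99153658 to 99182719, minus strand), one of the 2 enzymes that add the last fatty acid of triglyceride, had the largest rise of the members. It was at 88.5 and 76.8 CPM in AhCre KO against 143 and 157 CPM in AhCre WT, and at 1042 and 376 CPM in Villin KO against 140.4, 129.8 and 107 CPM in Villin WT. The Villin change was 5.63-fold (log2 2.49, SE 0.38, adjusted p = 0.00773) and the AhCre change -0.86 (SE 0.42, unadjusted p = 0.0653, adjusted p = 1.0), with no overlap of genotypes in either driver. The 2 Villin KO libraries themselves differed widely for Dgat2. Dgat1, the other of the 2 enzymes, did not follow: its changes were -0.41 in AhCre and -0.33 in Villin, and Villin KO 1 at 517 CPM lay within the WT range of 411 to 587 CPM while Villin KO 2 lay below it at 231 CPM. Mogat2, which makes diacylglycerol from the monoacylglycerol taken up from the gut and lies 36364 bases from Dgat2 on chromosome 7, was at 244 and 245 CPM in AhCre KO against 389.8 and 383 CPM in AhCre WT. In Villin it was at 1303 and 1183 CPM in KO against 702, 529 and 719 CPM in WT. Its replicates were close together and the genotypes apart in both drivers, but neither change passed, at -0.66 (SE 0.32, adjusted p = 1.0) and 0.93 (SE 0.29, adjusted p = 0.0696). Soat2, which esterifies absorbed cholesterol, was at 122 and 109 CPM in AhCre KO against 139.6 and 128 CPM in AhCre WT. It was at 505 and 409.7 CPM in Villin KO against 179, 207 and 301 CPM in Villin WT (1.00, SE 0.30, adjusted p = 0.0681), again apart in both drivers.

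**Figure D2:**
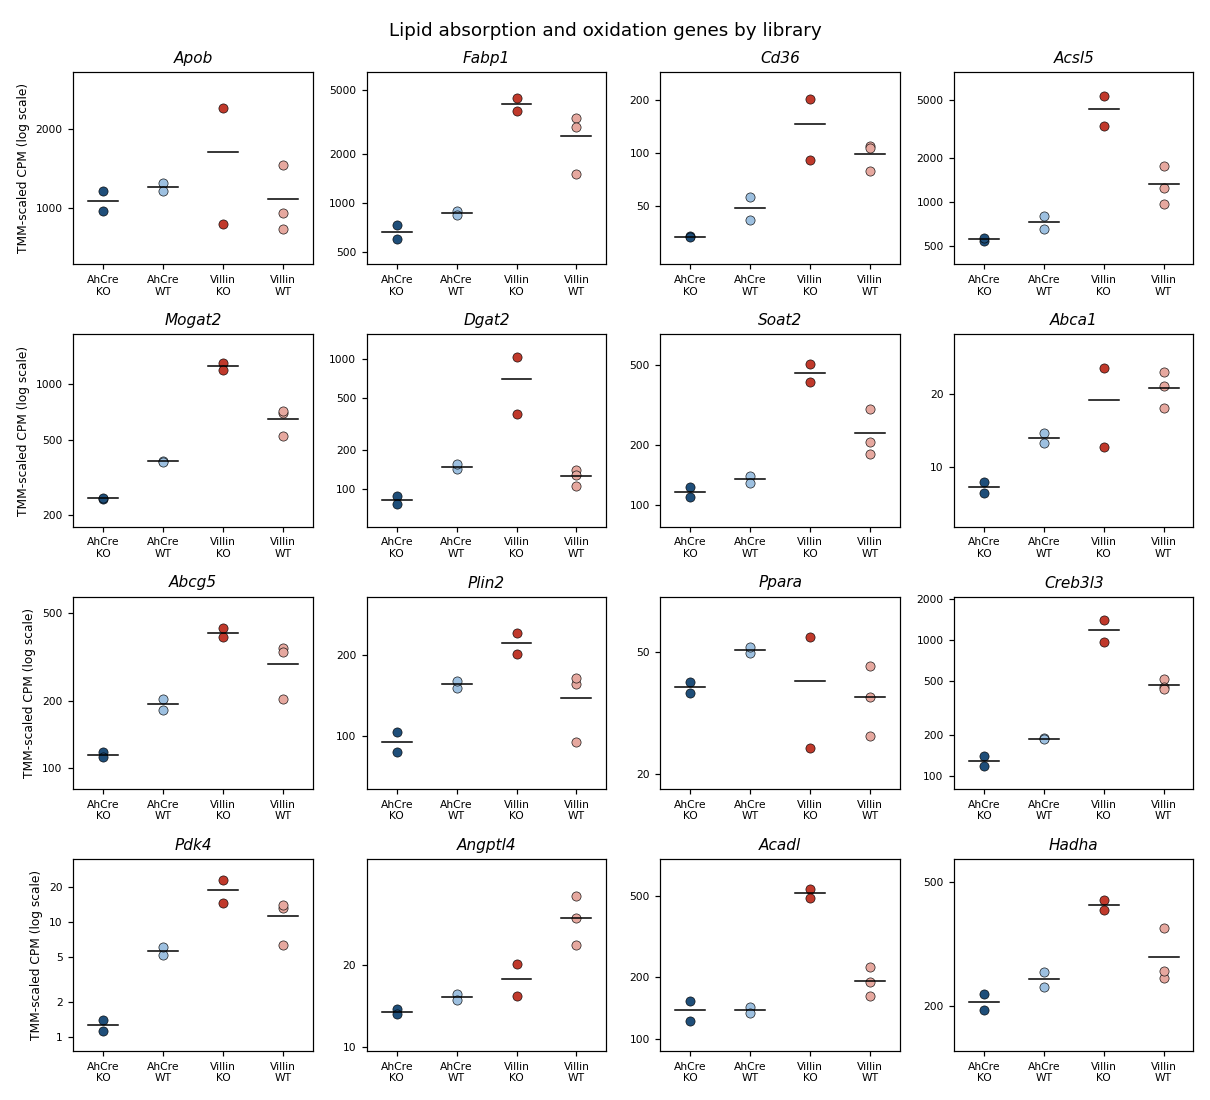
TMM-scaled CPM on a log axis is shown for 16 members, with 1 point per library and a bar at the group mean, in AhCre KO and WT (blue) and Villin KO and WT (red). Dgat2, Acsl5, Acadl and Creb3l3 have both Villin KO points above all 3 Villin WT points, and Pdk4 has both AhCre KO points (1.13 and 1.39 CPM) below both AhCre WT points (5.17 and 6.04 CPM).

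The 3 genes of sterol efflux had medians of -0.76 in AhCre and 0.47 in Villin. Abcg5 and Abcg8 form the dimer that pumps cholesterol and plant sterols back into the gut lumen, and they are transcribed on opposite strands of chromosome 17. One of the 2 Abcg8 starts in the promoter table lies 109 bases from the Abcg5 start, and the other lies within Abcg5. Abcg5 was at 118 and 112 CPM in AhCre KO against 205 and 184 CPM in AhCre WT, and at 389.9 and 427 CPM in Villin KO against 206, 347 and 334 CPM in Villin WT. Abcg8 was at 83.3 and 81.4 CPM in AhCre KO against 139 and 158 CPM in AhCre WT, and at 241 and 211 CPM in Villin KO against 132, 184 and 155 CPM in Villin WT. The pair had alike values: -0.76 and -0.85 in AhCre (unadjusted p = 0.0444 and 0.0166) and 0.47 and 0.53 in Villin, none with an adjusted p under 0.05. Because they share 82 bases of exon on opposite strands, part of their reads cannot be told apart. The window at the start of Abcg5 (chr17:84682962-84683261, minus strand, RefSeq, GRCm38.p6) covers the stretch between these nearer starts, which is in capitals and holds none of the 4 motifs:
Abcg5: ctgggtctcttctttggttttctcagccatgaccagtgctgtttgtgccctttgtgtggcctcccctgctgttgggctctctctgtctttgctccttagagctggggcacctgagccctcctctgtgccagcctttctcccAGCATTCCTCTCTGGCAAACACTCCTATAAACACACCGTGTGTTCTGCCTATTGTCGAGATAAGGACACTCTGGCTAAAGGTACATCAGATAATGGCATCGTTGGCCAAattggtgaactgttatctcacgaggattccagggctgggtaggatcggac
Abca1, which exports cholesterol to apolipoprotein A1 on the basal side, was at 8.65 and 7.81 CPM in AhCre KO against 12.5 and 13.8 CPM in AhCre WT. In Villin it was at 12.1 and 25.6 CPM in KO against 21.6, 24.8 and 17.5 CPM in WT, so that 1 KO library was below and the other above the WT range.

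The 3 droplet genes had medians of -0.46 in AhCre and 0.68 in Villin. Plin2, a coat protein of the droplet, was at 86.8 and 103 CPM in AhCre KO against 152 and 160.5 CPM in AhCre WT (-0.72, SE 0.34, unadjusted p = 0.0564). It was at 202 and 242 CPM in Villin KO against 156, 164 and 94.8 CPM in Villin WT (0.68, SE 0.31, adjusted p = 0.182). The genotypes were apart in both drivers, in opposite directions. Plin3, another coat protein, had changes of -0.46 and 0.42, and Pnpla2, the lipase that begins droplet breakdown, of -0.42 and 0.85. The Plin2 window (chr4:86670010-86670309, minus strand, RefSeq, GRCm38.p6) is the one among the members with both a core motif, 218 bases before the start and read on the other strand, and an E-box, which begins 4 bases before the start, both in capitals:
Plin2: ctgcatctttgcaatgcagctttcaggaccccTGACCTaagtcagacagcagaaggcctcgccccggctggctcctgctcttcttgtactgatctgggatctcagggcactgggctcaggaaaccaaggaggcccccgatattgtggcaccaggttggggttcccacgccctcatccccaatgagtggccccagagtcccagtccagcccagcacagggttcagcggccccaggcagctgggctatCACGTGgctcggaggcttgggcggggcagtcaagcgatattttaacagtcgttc

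The 4 regulators and fasting genes had medians of -0.48 in AhCre and 0.46 in Villin. Creb3l3 (chromosome 10, 81084324 to 81098874, minus strand), a transcription factor that switches on apolipoprotein and fasting genes in liver and gut, rose in Villin. It was at 118 and 140.0 CPM in AhCre KO against 190.2 and 186 CPM in AhCre WT, and at 1406 and 965 CPM in Villin KO against 512, 453 and 434 CPM in Villin WT. The Villin change was 2.54-fold (log2 1.35, SE 0.29, adjusted p = 0.0251) and the AhCre change -0.54 (SE 0.33, adjusted p = 1.0). Of its 2 windows, the one at chr10:81098823-81099122 lies at the upstream end of the gene and holds none of the motifs searched. The other (chr10:81092542-81092841, minus strand, RefSeq, GRCm38.p6) has its start within the gene and holds a core motif 202 bases before that start, in capitals:
Creb3l3: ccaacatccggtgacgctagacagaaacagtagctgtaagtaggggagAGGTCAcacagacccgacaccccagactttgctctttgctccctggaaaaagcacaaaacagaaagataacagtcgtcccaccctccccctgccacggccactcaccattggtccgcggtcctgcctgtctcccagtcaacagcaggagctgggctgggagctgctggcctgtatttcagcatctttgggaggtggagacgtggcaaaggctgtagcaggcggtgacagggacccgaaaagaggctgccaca
Pdk4 (chromosome 6, 5483351 to 5496309, minus strand), a kinase that shuts off pyruvate oxidation in fasting, had the largest change of the members in AhCre. It was at 1.13 and 1.39 CPM in AhCre KO against 5.17 and 6.04 CPM in AhCre WT, a fold of 0.227 (log2 -2.14, SE 0.51, unadjusted p = 0.00113, adjusted p = 0.375). In Villin it was at 14.5 and 23.4 CPM in KO against 6.29, 13.3 and 14.1 CPM in WT (0.76, SE 0.42, adjusted p = 0.267). Ppara itself did not pass in either driver (-0.41 and 0.17). It was at 36.7 and 39.8 CPM in AhCre KO against 49.7 and 51.9 CPM in AhCre WT, and at 24.2 and 55.8 CPM in Villin KO against 35.6, 44.9 and 26.6 CPM in Villin WT. Its Villin KO libraries lay on either side of the WT range. Angptl4, a secreted inhibitor of lipoprotein lipase and a PPAR target, was 1 of the 5 members with a negative change in Villin. It was the 1 member with both Villin KO libraries below all Villin WT libraries. Its level was 20.1 and 15.4 CPM in Villin KO against 23.7, 29.6 and 35.8 CPM in Villin WT. The change was -0.75 (SE 0.32, unadjusted p = 0.0383, adjusted p = 0.167). In AhCre it was at 13.7 and 13.2 CPM in KO against 15.6 and 14.9 CPM in WT.

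The 7 beta-oxidation genes had medians of -0.24 in AhCre and 0.69 in Villin. Acadl (chromosome 1, 66830839 to 66863277, minus strand), the long-chain acyl-CoA dehydrogenase, rose in Villin, at 542 and 489.6 CPM in KO against 189.8, 162 and 223 CPM in WT, a 2.69-fold change (log2 1.43, SE 0.28, adjusted p = 0.0176). In AhCre its genotypes overlapped, at 154 and 122 CPM in KO against 142 and 133 CPM in WT. Acadm, the medium-chain dehydrogenase, did not pass, at -0.04 in AhCre and 0.69 in Villin (adjusted p = 0.153). Hadha and Hadhb, the 2 subunits of the mitochondrial trifunctional protein, start 272 bases apart on chromosome 5 and are transcribed away from each other. Hadha was at 194 and 219 CPM in AhCre KO against 257 and 229.8 CPM in AhCre WT, and at 439 and 406 CPM in Villin KO against 245, 358 and 258 CPM in Villin WT. The changes were -0.24 and -0.34 in AhCre and 0.56 and 0.90 in Villin for Hadha and Hadhb, none past the test. Ehhadh, the peroxisomal bifunctional enzyme, was at 63.5 and 62.7 CPM in AhCre KO against 116 and 114 CPM in AhCre WT (-0.86, unadjusted p = 0.0380), and at 341 and 255 CPM in Villin KO against 83.8, 169 and 166 CPM in Villin WT (1.09, adjusted p = 0.0686). Cpt1a, the gate for entry of fatty acids into mitochondria, and Acaa2, the last enzyme of the mitochondrial cycle, overlapped in Villin, with changes of -0.47 and -0.10, and were at -0.16 and -0.65 in AhCre.

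Whether the 2 drivers differed was tested directly, as the AhCre effect minus the Villin effect. The difference was negative for 32 of 35 members, with a median of -1.04 against 0.18 over all genes, and positive for 3, where 42.9% of all genes were negative and 57.1% positive. By edgeR 0 members passed as lower (0.0677% of all genes did) and 0 as higher (0.00615%), while at an unadjusted p under 0.05 15 were lower (6.32% of all genes) and 0 higher (9.55%). DESeq2 called 10 members lower (1.75% of all genes) and voom 6 (0.782%), and neither called one higher (0.591% of all genes by DESeq2 and 0.105% by voom). The smallest adjusted p by edgeR was that of Dgat2, with a difference of -3.35 (SE 0.58, adjusted p = 0.0800), followed by Pdk4 at -2.90 (SE 0.65, adjusted p = 0.121) and Creb3l3 at -1.89 (SE 0.44, adjusted p = 0.127). On the mean of both drivers 0 members passed by edgeR, against 0.972% of all genes higher and 0.197% lower, and 0 by voom, against 1.43% higher and 0.209% lower, and DESeq2 called 1 higher (Acadl, 2.04% of all genes). At an unadjusted p under 0.05, 3 were higher on the mean (Dgat2, Acsl5 and Acadl, 5.37% of all genes) and 0 lower (8.49%). By sign, 22 were positive on the mean (40.9% of all genes) and 13 negative (59.1%). Without Villin KO 2, 4 members passed as lower in the difference (1.28% of all genes) and 1, Dgat2, as higher on the mean (2.52%). Without both Villin WT 2 and Villin KO 1, 2 passed in the difference (Pdk4 and Dgat2, 0.481%), and with no filter on low counts 6 did (0.388%).

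Replicates lay closer together in AhCre, where chi-square per degree of freedom between pairs was 12.2 in KO and 8.12 in WT, than in Villin, where it was 41.0 to 62.5. The number of AhCre calls differed between the fit of all 9 libraries and a fit of AhCre alone. With the 4 AhCre libraries fitted alone, 10 members fell (2.82% of all genes fell) and 0 rose (3.62% of all genes rose). They were Pdk4 (-2.13, SE 0.33, adjusted p = 0.000453), Scarb1 (-1.40, adjusted p = 0.00120), Ehhadh (-0.85), Dgat2 (-0.84), Abcg8 (-0.83), Abcg5 (-0.74), Plin2 (-0.70), Mttp (-0.65), Mogat2 (-0.64) and Acaa2 (-0.63). The 8 members called by voom were those 10 less Mttp and Acaa2. In the same kind of fit of the Villin libraries alone, Dgat2 was the 1 member that passed (adjusted p = 0.00986, 1.64% of all genes rose).

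The Villin calls depended on single libraries. Without Villin KO 1 no member passed by edgeR (median 0.52, 0.311% of all genes rose), without Villin WT 1 it was 1 (Dgat2, 0.635%), and without both Villin WT 2 and Villin KO 1 it was 2 (Acadl and Dgat2, 1.42%). Without Villin KO 2, 7 members passed (5.87%), without Villin WT 2, 7 (3.27%), and without Villin WT 3, 6 (4.18%). Creb3l3 alone dropped out of the 4 with each AhCre library left out in turn, where 1.39% and 1.40% of all genes rose without AhCre KO 1 and KO 2, and 1.48% and 1.42% without AhCre WT 1 and WT 2. By other settings 7 members passed with DESeq2 size factors (4.33%), 5 with no filter on low counts (1.78%), 4 with at least 1 CPM in at least 4 libraries (3.45%), 10 with an offset for exon length (6.5%), 2 with a replicate block (1.18%) and 0 with that block after crossing the AhCre KO numbers (0.228%). The 4 Villin rises kept a positive sign in every alternative run, between 1.59 and 3.04 for Dgat2, 1.34 and 2.00 for Acsl5, 1.07 and 1.58 for Creb3l3, and 1.37 and 1.61 for Acadl.

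Markers of mature enterocytes outside lipid handling moved with the lipid genes in Villin. The 19 such markers included brush-border enzymes and sugar and peptide carriers. They summed to 58862 and 34989 CPM in Villin KO against 12958, 13666 and 18881 CPM in Villin WT. Of the 19, 16 rose (3.33% of all genes) and all were positive (41.4%), with a median of 1.64. The 12 crypt base and cycling markers, such as Lgr5 and Mki67, summed to 619 and 1946 CPM in Villin KO. Their sums in Villin WT were 1492, 3100 and 2823 CPM. Of the 12, 4 fell (2.88% of all genes) and all were negative (58.5%), with a median of -1.22. In AhCre the enterocyte sum was 7857 and 7145 CPM in KO against 9041 and 8633 CPM in WT. There 12 enterocyte markers were negative (50.5% of all genes) and 7 positive (49.5%), with a median of -0.07. The crypt sum was 3166 and 3296 CPM in AhCre KO against 3196 and 2551 CPM in AhCre WT. Of the crypt markers 9 were positive and 3 negative in AhCre, with a median of 0.21. The markers of the proximal intestine, where fat is mainly absorbed, summed to 1141 and 1047 CPM in AhCre KO against 1860 and 1823 CPM in AhCre WT, with all 9 tested ones negative, and to 4320 and 3506 CPM in Villin KO against 2955, 2616 and 2664 CPM in Villin WT. The higher Villin sum was not shared by most of these markers: 4 were positive and 5 negative, with a median of -0.0070, 0 passed as higher (1 at an unadjusted p under 0.05) and 1 fell (Slc40a1, log2 -2.16). The distal markers summed to 3578 and 4192 CPM in AhCre KO against 3549 and 3478 CPM in AhCre WT, and to 5254 and 6326 CPM in Villin KO against 9923, 3373 and 9170 CPM in Villin WT. The part of these markers in the lipid gene values was not tested.

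**Figure D3:**
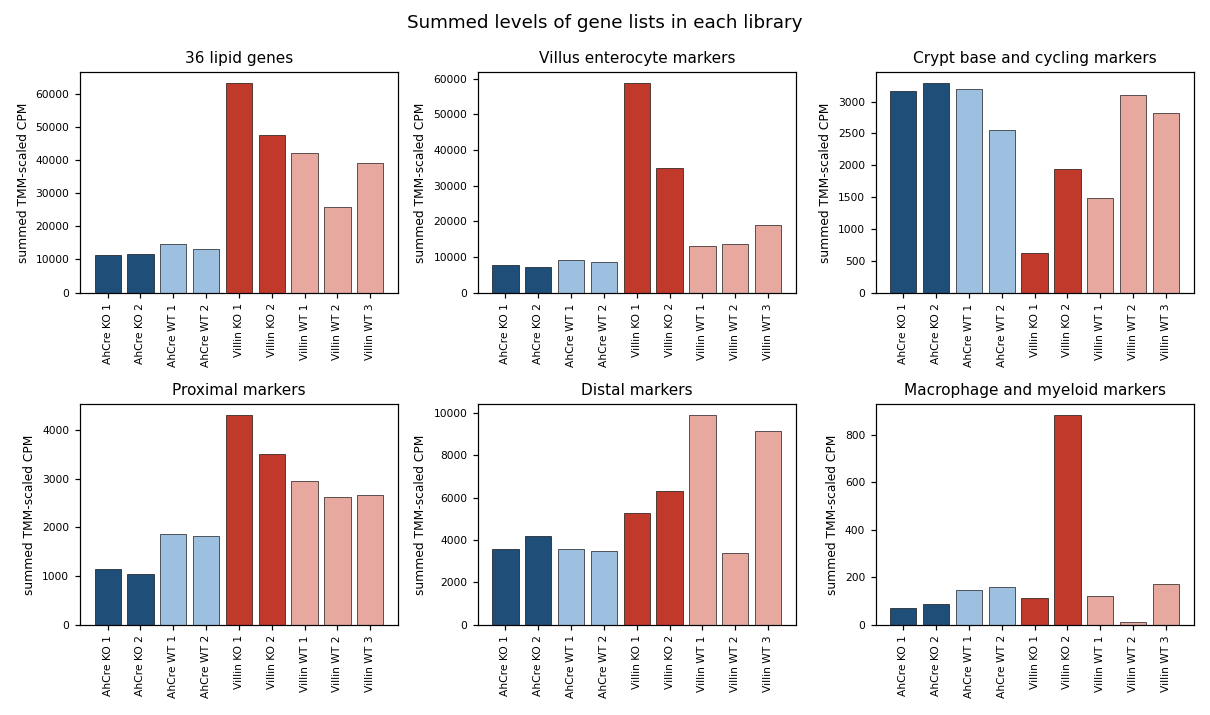
Bars give the summed TMM-scaled CPM of 6 gene lists in each of the 9 libraries, with AhCre in blue and Villin in red and KO darker than WT. The 36 lipid genes and the villus enterocyte markers are highest in the 2 Villin KO libraries, while the crypt markers are lowest in Villin KO 1 (619 CPM), and the myeloid sum stands out in Villin KO 2 (884 CPM).

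Other genes of the same pathways were read from 3 further lists. Of 38 tested genes of absorption and chylomicron transport, 5 rose in Villin (3.33% of all genes) and 1 fell (2.88%), with a median of 0.91. Bco1, which cleaves carotenoids to retinal, rose (41.6 and 48.6 CPM in KO against 3.41, 2.44 and 10.6 CPM in WT, log2 3.06). So did Cidec, a droplet fusion protein also known from fat cells (452 and 189.6 CPM in KO against 86.5, 53.4 and 87.3 CPM in WT, 2.08). The others that rose were Gpat3, the first enzyme of glycerolipid synthesis (1.88), Gramd1c, a sterol transporter (1.33), and Lrat, which esterifies retinol (1.06). Vldlr, a lipoprotein receptor, fell by 2.10 (adjusted p = 0.0461 by edgeR). Its level was 1.84 and 0.926 CPM in Villin KO, from 9 and 6 counts, against 7.19, 6.67 and 3.66 CPM in Villin WT. In AhCre 0 of the 38 passed, with 1 higher (1.81% of all genes) and 1 lower (1.72%) at an unadjusted p under 0.05. The median there was -0.17.

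Of 35 tested genes of beta-oxidation and ketogenesis, 4 rose in Villin (3.33% of all genes) and 0 fell (2.88%), with a median of 0.41. By an unadjusted p under 0.05, 8 were higher (10.7% of all genes) and 2 lower (15.4%). The 4 included Acsf2, a mitochondrial acyl-CoA synthetase (3.31, adjusted p = 0.00773), Cyp4f14, a fatty acid hydroxylase (1.39), and Crat, carnitine acetyltransferase (1.31). Acsf2 was the 1 of them that also passed on the mean of both drivers (2.13, adjusted p = 0.0178): it was at 74.9 and 54.5 CPM in AhCre KO against 27.7 and 38.9 CPM in AhCre WT, and at 183 and 42.3 CPM in Villin KO against 8.45, 10.6 and 15.0 CPM in Villin WT. The 8 tuft cell markers, a list led by Dclk1 and Trpm5, summed to 752 and 666 CPM in AhCre KO against 126 and 139 CPM in AhCre WT, and to 1994 and 296 CPM in Villin KO against 69.0, 53.5 and 62.6 CPM in Villin WT. All 8 rose in Villin (3.33% of all genes) and on the mean (0.972%), with medians of 4.30 and 3.36. The part of the tuft markers in the Acsf2 value was not tested. In AhCre 0 of the 35 passed, with 0 higher (1.81% of all genes) and 4 lower (1.72%) at an unadjusted p under 0.05. The median there was -0.32. Of 21 regulators of lipid genes, 1 rose in Villin (3.33% of all genes). It was Pparg, a fatty acid receptor of the PPAR family (1.66, adjusted p = 0.0300). Its level in Villin was 52.0 and 22.1 CPM in KO against 12.9, 11.03 and 11.2 CPM in WT. No regulator fell in Villin (2.88% of all genes). By an unadjusted p under 0.05, 2 regulators were higher in Villin (10.7% of all genes) and 4 lower (15.4%). In AhCre 0 of 21 passed, with 0 higher (1.81% of all genes) and 3 lower (1.72%) at an unadjusted p under 0.05.

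The WT levels of the 2 drivers differed by gene and with gene length. On the scale of log2(CPM + 0.5), AhCre WT minus Villin WT was -2.42 for Apoa4, -2.13 for Fabp2 and -1.70 for Apoa1, and 0.60 for Cpt1a and 0.53 for Ppara. Over the 35 tested members this difference had a Spearman correlation of 0.58 with summed exon length, against 0.35 over all 16250 genes. Driver, inducer and library set were shared within each WT group and cannot be told apart. Within Villin WT alone, replicate 2 minus the mean of replicates 1 and 3 had a correlation of 0.54 with length over the same members and 0.45 over all genes. The KO changes had nearly none, at -0.02 in AhCre and -0.02 in Villin over the members, against -0.11 and 0.06 over all genes. An offset for exon length nonetheless took the members called higher in Villin to 10, against 4 without it. The share of all genes called higher also went up, to 6.5% with the offset against 3.33% without it.

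**Figure D4:**
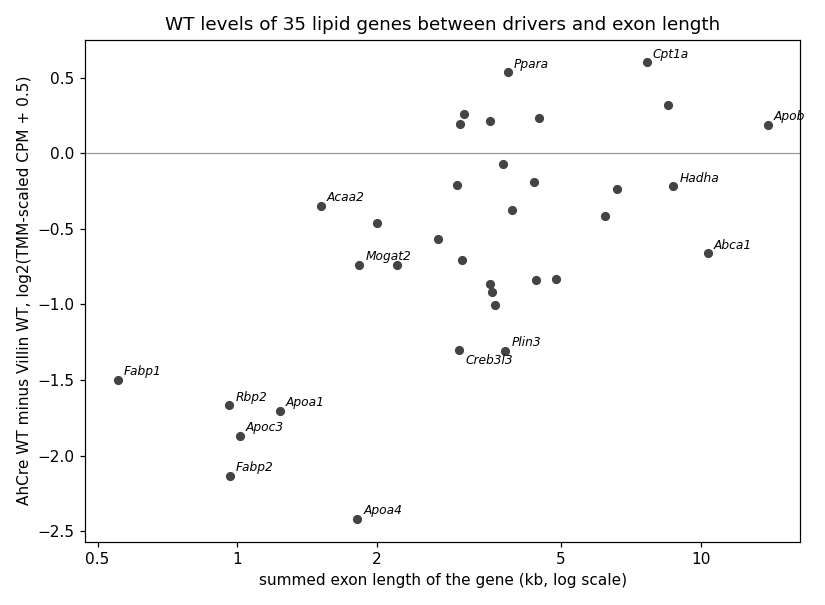
Each point is 1 of the 35 tested members, with its summed exon length in kb on a log axis and the AhCre WT level minus the Villin WT level in log2(TMM-scaled CPM + 0.5) on the vertical axis. The short genes Fabp1, Fabp2, Rbp2, Apoa1, Apoc3 and Apoa4 lie lowest, and Cpt1a and Ppara lie highest.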

How the data were processed

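RNA of intestinal crypts was made into 9 Smart-seq2 libraries from 2 ng of RNA each, per the labels' protocols, a method that does not mark the strand. The authors deposited whole-number read counts per gene, unscaled. The submitters' processing notes name STAR 2.7, featureCounts, DESeq2 1.20 and the builds mm10 and GRCm38. Their roles, annotation and strand option were not given in the sources used here. Every one of the 55341 row names (100%) matched GENCODE M21 of GRCm38, which gave coordinates and exon lengths, and promoter windows came from RefSeq (GRCm38.p6).

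The counts were fitted with edgeR 4.0.16 (R 4.3.3). filterByExpr on the 4 groups left 16250 genes. A quasi-likelihood model with TMM scaling and a mean for each group took in the 9 libraries together (degrees of freedom 5 residual and 7.43 prior, coefficient of biological variation 0.332). Calls were made at a Benjamini-Hochberg adjusted p under 0.05 over all genes, and the procedure was tested on simulated data. Log2 fold changes are KO over WT, and no test was run over a list. With 6455098 to 12377921 counts in a library, a floor of 3 counts was 0.194 to 0.615 CPM, counting error only.

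The 36 members and the other lists were chosen with earlier results of these data known. Library values are given for members called in any contrast, the 8 with the smallest p on the mean of both drivers and 1 set for each role, plus Mttp, Fabp2, Scarb1, Dgat1, Abcg8 and Ehhadh, added after their values were seen. Of each other list up to 4 called genes were chosen for naming, of which some are not reported here, with Lrat and Vldlr added after their values were seen. Alternatives were scaling by DESeq2 size factors, no filter on low counts or a filter of 1 CPM in 4 libraries, DESeq2 1.42.0 (Wald test), voom with sample weights (limma 3.58.1), separate fits of the drivers, blocking on replicate number, a minimum log2 fold change of 1, and libraries left out. Crossed replicate numbers and an offset for exon length were chosen after seeing the data.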

Additional observations from a re-analysis of the deposited data

How the results depend on the processing

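Of the 640 alternative values of 32 results for named members, 577 kept their direction and side of the threshold, 20 were newly past it, 24 were no longer past it and 19 changed sign. The 4 members that rose in Villin (3.33% of all genes) became 7 with DESeq2 size factors (4.33%) and 10 with the DESeq2 Wald test (6.75%). The count was 2 with voom (0.812%), 1 with Villin fitted alone (1.64%) and 10 with an offset for exon length (6.5%). It was 1, 7 and 6 without Villin WT 1, 2 and 3 (0.635%, 3.27% and 4.18%). The median of the members was 0.52 without Villin KO 1, 0.73 without Villin KO 2, and 0.70 without Villin WT 2 and Villin KO 1. DESeq2 size factors moved the median of all genes in Villin from -0.18 to -0.08 and that of the members from 0.66 to 0.77. In AhCre the 0 members that fell (0% of all genes) became 1 with the DESeq2 Wald test (0.154%), 8 with voom (2.42%) and 10 with AhCre fitted alone (2.82%). The count stayed 0 with each Villin WT library left out (0% of all genes). With each AhCre library left out, the median of the members ran from -0.46 to -0.36. For the AhCre effect minus the Villin effect, the 0 members that passed as lower (0.0677% of all genes) became 6 without the low-count filter (0.388%). The count was 10 with the DESeq2 Wald test (1.75%) and 6 with voom (0.782%). With each library left out, the median difference of the members ran from -1.20 to -0.95. On the mean of both drivers 1 member passed as higher with the DESeq2 Wald test (2.04% of all genes), against 0 by edgeR (0.972%). With each library left out, the median of the members on the mean ran from 0.06 to 0.22. Counts of the other 4 results (members lower in Villin, higher in AhCre, lower on the mean and higher for the difference) were 0 throughout. The causes were not tested.

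Same-numbered deviations from the group means correlated at -0.13 in AhCre and at 0.07 and -0.21 in Villin. In a group of 2 libraries these deviations mirror each other, so the values cannot decide whether the replicate numbers pair the samples. With the replicate block the Villin count was 2 (1.18% of all genes rose), and with the AhCre KO numbers crossed it was 0 (0.228%). The AhCre, mean and difference counts stayed 0.

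Changes near 0 changed sign. Abca1 in Villin, at -0.17, became 0.11 with the offset for exon length and 0.52 without Villin WT 2 and Villin KO 1, and ran from -0.83 to 0.28 with each library left out. Ppara in Villin, at 0.17, became -0.11 with either block and ran from -0.57 to 0.66 with each library left out. Acadl in AhCre, at -0.00049, became 0.046 without the low-count filter and 0.016, 0.015 and 0.018 with AhCre fitted alone, with the offset and without the 2 Villin libraries, and ran from -0.18 to 0.16 with each library left out. Apob and Cd36 in Villin ran from -0.31 to 1.15 and from -0.12 to 1.04. Between 2 and 3 libraries a group and low counts, such as 2 to 10 for Apoc2, limit what can be seen.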
